A study of Homo sapiens with 15 samples.

Results

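The 10 genes described here, MUC1, MUC4, MUC16, MUC20, PIGR, WFDC2, SLPI, LCN2, AGR2 and SCGB1A1, encode mucins and secretory products of epithelial cells. They are 10 of the 33158 gene symbols in the deposited expression table, taken by name. They were chosen with the measured values of these same libraries known, so their levels and differences are given as a description, with no test.

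RNA was sequenced from 3 triple negative breast cancer cell lines, that is, lines classed as lacking the estrogen and progesterone receptors and amplified ERBB2. SUM149PT (SUM149 in the labels) and HCC1937 were each separated by cell sorting into cancer stem cells (CSCs), gated as CD44+/CD24-/low, and non-CSCs, the cells outside that gate. SUM159PT (SUM159 in the labels) was not sorted and is labelled as cancer stem cells as a whole. Each of the 5 groups has 3 libraries. Nothing says that the replicates came from separate cultures or sorts, so p-values measure only the spread between these libraries, which may be technical. The unit is FPKM, fragments scaled for transcript length and for the mapped fragments of the library, a level per length that can be compared between genes within a library. The depth of the libraries is unknown. In bulk RNA, fewer cells that express a gene and less RNA per cell cannot be told apart.

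Mucins are large, heavily O-glycosylated proteins that line the luminal face of epithelia, either anchored in the membrane or secreted as gel. Secretory epithelia, the mammary gland and the airways among them, also release small proteins that inhibit proteases, bind iron carriers or carry antibodies to the lumen. Several of these products are used as markers of carcinomas, since tumours of glandular origin go on making and shedding them.

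In SUM149PT all 10 genes had lower FPKM in every CSC library than in every non-CSC library, and in HCC1937 this held for 9 of the 10, with SCGB1A1 as the exception. All 10 passed the minimum of a mean of 0.1 FPKM in each line. Among all genes that passed it, every CSC library was below every non-CSC library for 43.4% in SUM149PT and for 24.3% in HCC1937. Since the genes were selected on these values, nothing is read from their count. Of the 5 groups, SUM159PT had the lowest mean for MUC4, MUC16, MUC20, PIGR, SLPI, LCN2 and AGR2, though its libraries overlapped those of another group for MUC4, MUC20, PIGR and SLPI, and for MUC4 and PIGR alone after rescaling to a common sum.

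**Figure D1:**
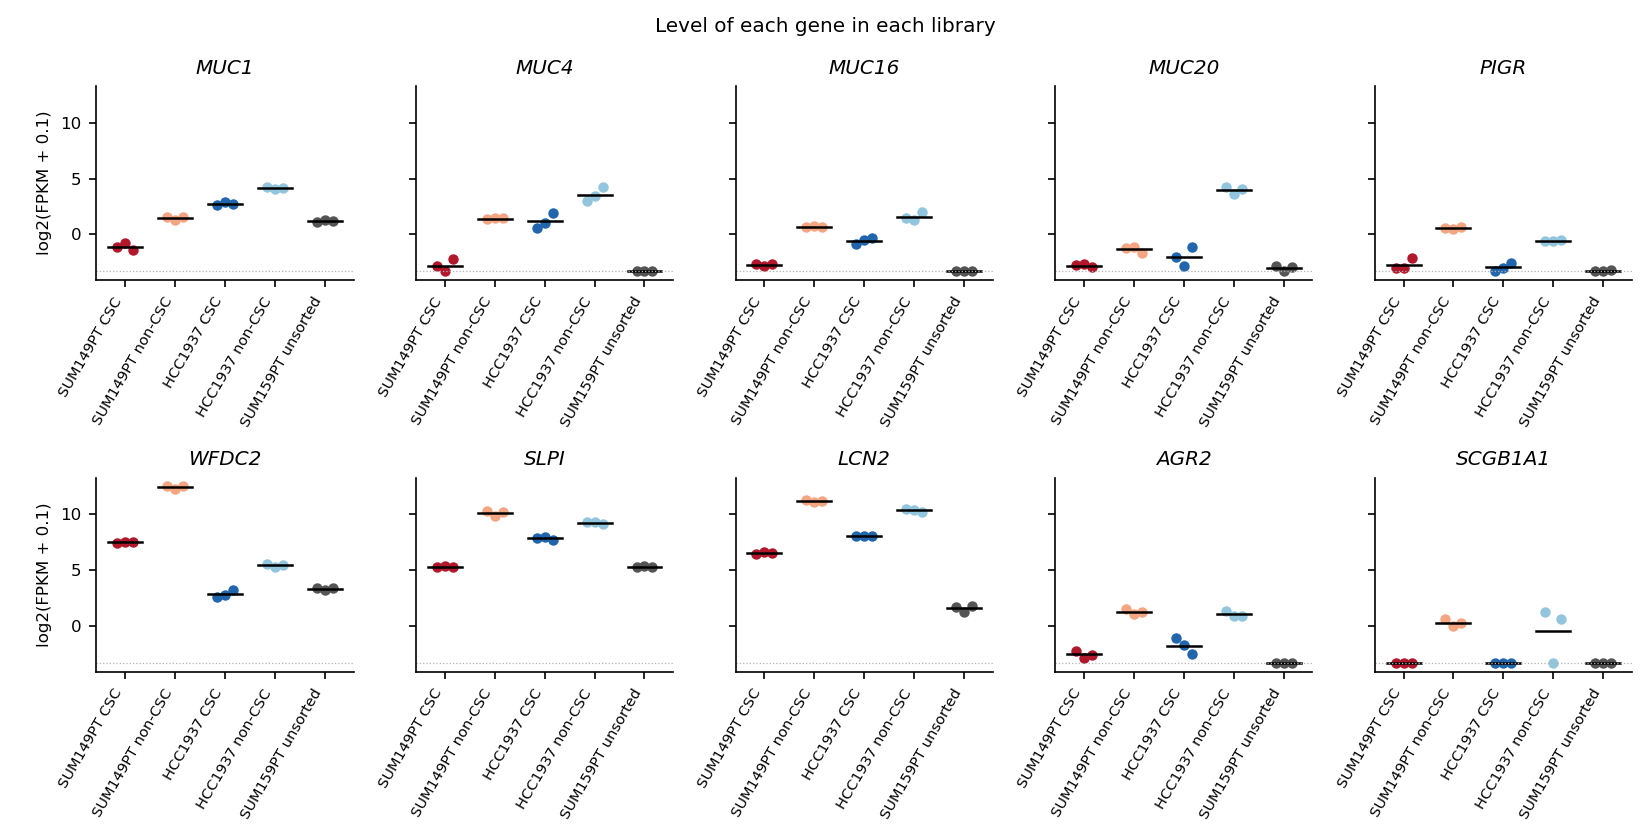
Level of each of the 10 genes in each of the 15 libraries, as log2(FPKM + 0.1); points are libraries, black bars the mean of 3, and the dotted line marks FPKM of 0. In both sorted lines the CSC points lie below the non-CSC points, except for SCGB1A1 in HCC1937, where 1 non-CSC library is at 0.

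The levels spanned a wide range. WFDC2, LCN2 and SLPI made up nearly all of the summed FPKM of the 10 genes, and the other 7 together reached at most 0.0186% of a library's FPKM sum. In SUM149PT non-CSCs the 10 genes took 3.00%, 2.65% and 2.97% of the sum of all genes, against 0.104%, 0.1004% and 0.106% in its CSCs. In HCC1937 the shares were 0.615%, 0.563% and 0.560% in non-CSCs and 0.151%, 0.172% and 0.161% in CSCs. SUM159PT libraries gave 0.00838%, 0.00849% and 0.00857%. The groups did not overlap in this share, and the fraction outside the gate held the larger share in both sorted lines.

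**Figure D2:**
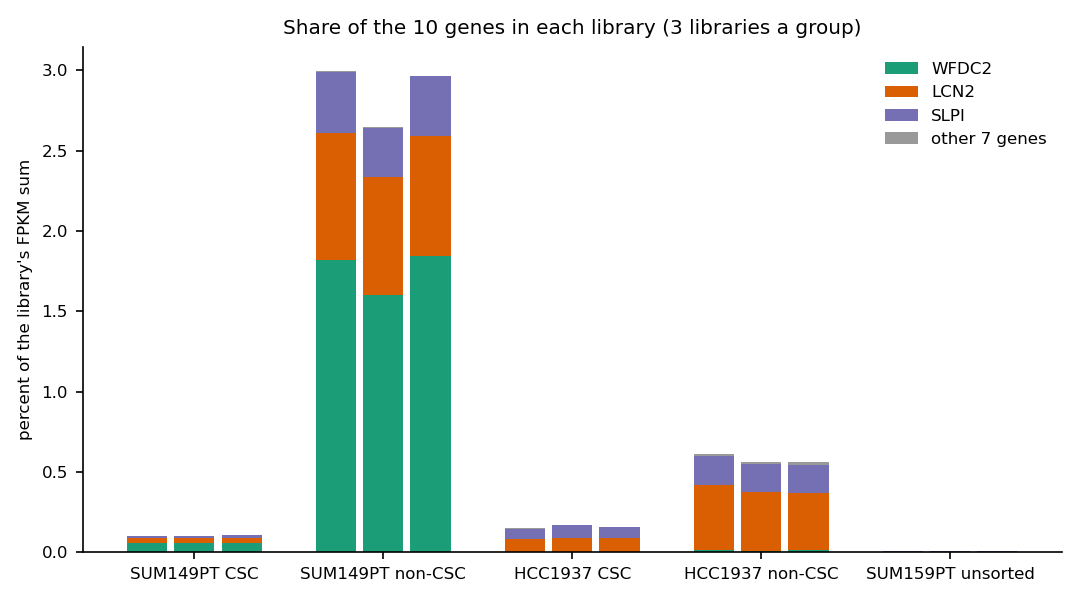
Percent of each library's FPKM sum taken by WFDC2, LCN2, SLPI and the other 7 genes, as stacked bars, 3 libraries a group. SUM149PT non-CSCs reach 2.65% to 3.00%, of which WFDC2 is the largest piece, while LCN2 is the largest piece in HCC1937.

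MUC1, a membrane-anchored mucin of the luminal surface of most glandular epithelia, whose shed part is measured in blood as a tumour marker, was detected in all 15 libraries. In SUM149PT it read 0.349, 0.478 and 0.289 FPKM in CSCs and 2.83, 2.30 and 2.87 in non-CSCs. In HCC1937 it read 6.23, 7.25 and 6.32 in CSCs and 19.3, 16.3 and 17.5 in non-CSCs. Neither line had an overlap of its fractions, with non-CSC means 7.16 times the CSC mean in SUM149PT (2.67 ± 0.3196 against 0.372 ± 0.0966, SD, n = 3) and 2.68 times in HCC1937 (17.7 ± 1.48 against 6.60 ± 0.563). SUM159PT read 2.12, 2.38 and 2.15. MUC1 was thus ordered more by line than by fraction, since HCC1937 CSCs exceeded SUM149PT non-CSCs, and SUM149PT non-CSCs overlapped SUM159PT as deposited, though not after rescaling to a common sum. On the log2(FPKM + 0.1) scale, which understates the change of genes with low FPKM, the difference of CSCs from non-CSCs was -2.56 (pooled SD 0.24) in SUM149PT and -1.41 (pooled SD 0.12) in HCC1937.

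MUC4, a very large membrane mucin that can associate with the receptor ERBB2, was listed at 0 in 4 libraries. A listed 0 need not mean absence, since CLK2 and SCAMP3, which most cells use, are listed at 0 in all 15 libraries. In SUM149PT, MUC4 read 0.0367, 0 and 0.116 FPKM in CSCs and 2.43, 2.64 and 2.67 in non-CSCs. In HCC1937 it read 1.40, 1.94 and 3.797 in CSCs and 7.85, 10.8 and 19.4 in non-CSCs, and the 3 SUM159PT libraries were listed at 0. The replicates of HCC1937 spread more widely than those of SUM149PT non-CSCs, yet the fractions of each line did not overlap. HCC1937 non-CSCs were highest, SUM149PT non-CSCs and HCC1937 CSCs overlapped in the middle, and SUM149PT CSCs overlapped SUM159PT at the bottom. The log2 difference was -4.22 (pooled SD 0.40) in SUM149PT and -2.38 (pooled SD 0.68) in HCC1937.

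MUC16, the membrane mucin that carries a serum marker of ovarian cancer, had no overlap between neighbouring groups, as deposited or after rescaling to a common sum. It read 0.0589, 0.0366 and 0.0564 FPKM in SUM149PT CSCs and 1.49, 1.54 and 1.47 in SUM149PT non-CSCs. It read 0.449, 0.615 and 0.717 in HCC1937 CSCs and 2.69, 2.39 and 3.93 in HCC1937 non-CSCs. SUM159PT was at the floor, with 0, 0.00357 and 0.00117. From the top, the order was HCC1937 non-CSCs, SUM149PT non-CSCs, HCC1937 CSCs, SUM149PT CSCs and SUM159PT. The non-CSC mean was 29.6 times the CSC mean in SUM149PT and 5.06 times in HCC1937, or log2 differences of -3.41 (pooled SD 0.09) and -2.15 (pooled SD 0.33).

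MUC20, a small membrane mucin known to bind the receptor MET, was the gene, of the 9 with a fold given, whose fraction difference on the log2(FPKM + 0.1) scale was furthest apart in the sorted lines. In SUM149PT it read 0.0497, 0.0543 and 0.0298 FPKM in CSCs and 0.322, 0.354 and 0.223 in non-CSCs. In HCC1937 it read 0.146, 0.0378 and 0.350 in CSCs and 19.4, 12.4 and 16.9 in non-CSCs. SUM159PT read 0.0446, 0 and 0.0317. Only HCC1937 non-CSCs were above 1 FPKM, and from SUM149PT non-CSCs downward each group overlapped the next. The log2 difference was -1.46 (pooled SD 0.21) in SUM149PT and -6.02 (pooled SD 0.65) in HCC1937 (-3.86 with 1 in place of 0.1). The ratio in HCC1937 was 91.2 between means, and from 35.3 to 514 between single libraries, because the CSC values are near 0. MUC20 has a closely related pseudogene on the same chromosome, MUC20P1, and how reads shared by such copies were assigned is not given in the sources used here, so its level is uncertain.

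MUC4 and MUC20 are neighbours. On GRCh38, with the gene bounds of GENCODE release 29, MUC20 lies on the forward strand of chromosome 3 from 195720882 to 195741123 and MUC4 on the reverse strand from 195746765 to 195812277, with 5.6 kb between their ends. The pair converge, and their group means had the same order, which MUC16 on chromosome 19 has too, with the overlaps given for MUC4 and MUC20 above. In SUM149PT non-CSCs the MUC4 level was 2.58 ± 0.128 FPKM beside 0.2999 ± 0.0682 for MUC20, and in HCC1937 non-CSCs 12.7 ± 5.998 beside 16.2 ± 3.56.

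PIGR, the polymeric immunoglobulin receptor, carries IgA and IgM from the basal to the luminal side of secretory epithelia, where its outer part is released with the antibody. It read 0.0243, 0.0270 and 0.129 FPKM in SUM149PT CSCs and 1.37, 1.31 and 1.501 in non-CSCs. In HCC1937 the values were 0.00582, 0.0280 and 0.0697 in CSCs and 0.546, 0.576 and 0.605 in non-CSCs. SUM159PT read 0, 0 and 0.0125. Both non-CSC groups stood clear of all others and of each other, whereas the CSC groups overlapped each other and HCC1937 CSCs overlapped SUM159PT. The log2 difference was -3.28 (pooled SD 0.36) in SUM149PT and -2.36 (pooled SD 0.25) in HCC1937.

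WFDC2, a small secreted protein with WAP domains, the 4-disulfide fold of protease inhibitors, is measured in serum as HE4. It was the most abundant of the 10 genes in SUM149PT. Its level was 174, 180.2 and 182 FPKM in SUM149PT CSCs and 5839, 4817 and 5819.7 in non-CSCs, which ranked it 3, 2 and 2 among all genes of those non-CSC libraries. In HCC1937 it was 5.97, 6.67 and 8.98 in CSCs and 46.8, 38.3 and 43.8 in non-CSCs. Even the SUM149PT CSCs, the low fraction of that line, lay above HCC1937 non-CSCs. SUM159PT read 10.3, 9.11 and 10.4, above HCC1937 CSCs as deposited but below them once every library is rescaled to the same FPKM sum. No neighbouring groups overlapped. Non-CSC means were 30.7 times the CSC mean in SUM149PT and 5.96 times in HCC1937, with log2 differences of -4.93 (pooled SD 0.11) and -2.58 (pooled SD 0.24).

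SLPI, the secretory leukocyte protease inhibitor, is a WAP protein that protects mucosal surfaces from neutrophil elastase. It read 39.2, 40.4 and 39.8 FPKM in SUM149PT CSCs and 1230.0, 927 and 1166 in non-CSCs. In HCC1937 it read 234, 252 and 204 in CSCs and 634, 644 and 558 in non-CSCs. SUM159PT read 39.0, 41.2 and 38.4, a range that holds all SUM149PT CSC values. The SUM159PT libraries were lower than all others after rescaling to a common sum. As a ratio, the lines thus differed less in non-CSCs, where the means were 1108 ± 159.8 and 612 ± 47.1, than in CSCs, where they were 39.8 ± 0.590 and 230.2 ± 24.3. The log2 difference was -4.78 (pooled SD 0.15) in SUM149PT and -1.41 (pooled SD 0.14) in HCC1937.

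WFDC2 and SLPI belong to the WAP gene cluster of chromosome 20. SLPI lies on the reverse strand from 45252239 to 45254564 and WFDC2 on the forward strand from 45469706 to 45481532 (GRCh38, GENCODE release 29), 215.1 kb apart. PI3, which encodes elafin, another WAP inhibitor of elastase, lies 75.7 kb from SLPI. Its level was 38.3, 42.5 and 37.9 FPKM in SUM149PT CSCs and 1322, 1146 and 1239 in non-CSCs, close to the values of SLPI itself. In HCC1937 it was 745.5, 660 and 595 in CSCs and 1844, 1825 and 1640 in non-CSCs.

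LCN2, lipocalin 2, binds bacterial siderophores, the small molecules with which bacteria take up iron, and is secreted by neutrophils and by many epithelia. It read 88.2, 96.7 and 95.2 FPKM in SUM149PT CSCs and 2532, 2197 and 2355 in non-CSCs. In HCC1937 it read 272, 269 and 268 in CSCs and 1443, 1336 and 1187 in non-CSCs. SUM159PT read 3.13, 2.25 and 3.38. LCN2 ranked 6, 5 and 5 among all genes in SUM149PT non-CSC libraries, and no neighbouring groups overlapped in the order SUM149PT non-CSCs, HCC1937 non-CSCs, HCC1937 CSCs, SUM149PT CSCs and SUM159PT. The log2 differences were -4.66 (pooled SD 0.09) in SUM149PT and -2.29 (pooled SD 0.10) in HCC1937, with non-CSC means 25.3 and 4.90 times the CSC means.

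AGR2, a protein disulfide isomerase of the endoplasmic reticulum that is needed for mucin folding, was listed at 0 in the 3 SUM159PT libraries. It read 0.117, 0.0370 and 0.0640 FPKM in SUM149PT CSCs and 2.80, 1.99 and 2.23 in non-CSCs. In HCC1937 it read 0.369, 0.199 and 0.0732 in CSCs and 2.35, 1.81 and 1.72 in non-CSCs. The non-CSC libraries of the 2 lines overlapped, and so did their CSC libraries, with CSC means of 0.0726 and 0.214 FPKM. The log2 differences were -3.83 (pooled SD 0.29) and -2.82 (pooled SD 0.53).

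SCGB1A1, the club cell secretory protein of the airways, was the gene most often listed at 0. It was so in 10 of the 15 libraries, among them all CSC and SUM159PT libraries. In non-CSCs it read 1.42, 0.923 and 1.08 FPKM in SUM149PT and 2.27, 0 and 1.42 in HCC1937. The HCC1937 non-CSC library at 0 overlaps the CSCs, and no fold is given against groups listed at 0.

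**Figure D3:**
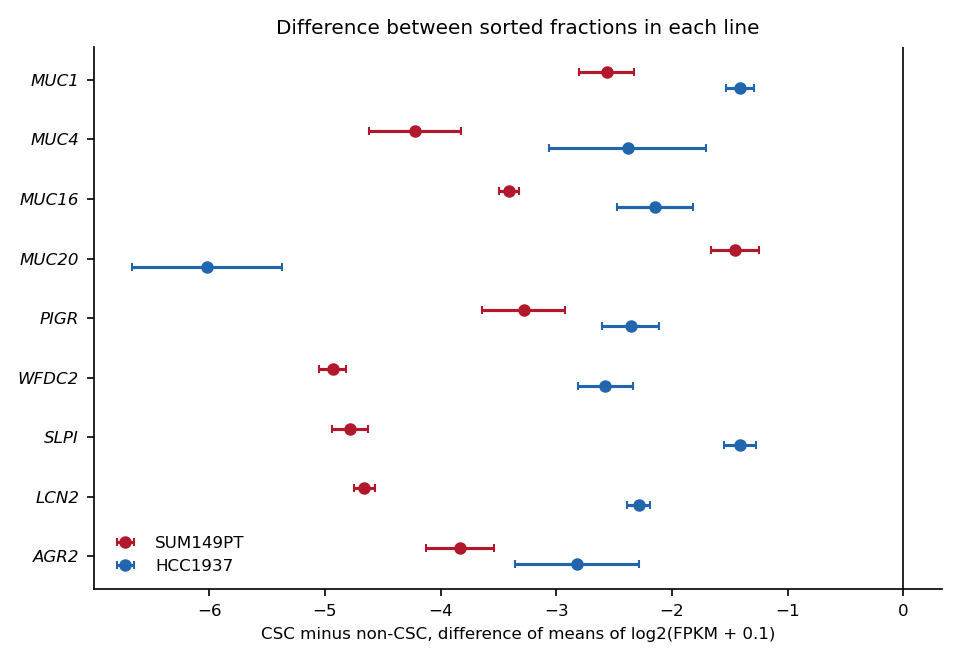
Difference of CSCs from non-CSCs in the mean of log2(FPKM + 0.1), by gene and line; bars are the pooled SD of 3 and 3 libraries, and SCGB1A1 is left out because its CSC libraries are at 0. All points are below 0, and MUC20 is the only gene shown whose point lies lower in HCC1937 (-6.02) than in SUM149PT (-1.46).

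On the log2(FPKM + 0.1) scale, each of the 9 genes shown apart from MUC20 differed more between the fractions in SUM149PT than in HCC1937. The SUM149PT difference minus the HCC1937 difference was -3.37 for SLPI, -2.37 for LCN2, -2.36 for WFDC2, -1.84 for MUC4, -1.26 for MUC16, -1.15 for MUC1, -1.02 for AGR2 and -0.93 for PIGR on the log2 scale, against 4.56 for MUC20. Over all 16451 genes tested, 30.4% differed between the lines in the effect of the fraction (adjusted p ≤ 0.05, log2 difference of 1 or more in size). For the genes with low FPKM this order depends on the value added before the logarithm. With 1 in place of 0.1, the differences of MUC4 were -1.77 in SUM149PT and -1.99 in HCC1937 and those of MUC16 -1.25 and -1.31, so both turned, and with 0.01 those of MUC4 were -6.06 and -2.43.

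The genes with the most similar profile were sought among 8018 genes, by the root mean square difference of the 5 group means of log2(FPKM + 0.1), each centred on its own mean. SLPI was closest to LOC100131289 (0.18) and RAB17 (0.27), a small GTPase of epithelial transport. LCN2 was closest to S100A14 (0.21) and to SPINT1 (0.23), a membrane inhibitor of serine proteases. MUC16 was closest to PADI1 (0.19), a peptidylarginine deiminase, and C11orf52 (0.21). For each of the 10 genes the 2 nearest were outside the 10. MUC4 was closest to B3GNT3 (0.21), an enzyme that extends O-glycans, and ARHGAP40 (0.33). AGR2 was closest to EPN3 (0.21), an epsin of endocytosis, and C2orf54 (0.22). MUC1 was closest to NPR1 (0.34), a natriuretic peptide receptor, and TSPAN1 (0.35), a tetraspanin. PIGR and SCGB1A1 shared TNNT2, cardiac troponin T, as a near gene (0.23 and 0.18), beside LOC101927811 (0.23) for PIGR and IL23A (0.18), a cytokine subunit, for SCGB1A1. PIGR and SCGB1A1 were also each other's nearest member, at 0.25. In the CSC and SUM159PT libraries PIGR read at most 0.129 FPKM and SCGB1A1 was listed at 0, so their matches depend on the added 0.1. The same holds for near genes with low FPKM, such as LOC100131289, with a mean of 0.118 FPKM in SUM149PT CSCs. The matches were loosest for WFDC2, with the collagen receptor DDR1 at 0.57 and MT1L at 0.73, and for MUC20, with LOC100131138 at 0.71 and SCARNA4 at 0.77, the latter listed at 0 in all libraries but HCC1937 non-CSC replicate 2, where it reads 3815 FPKM.

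RefSeq promoter sequences were at hand for 7 of the 10 genes (MUC1, MUC4, MUC16, PIGR, WFDC2, LCN2 and AGR2), and were searched because the genes were lower together in CSCs. In the 250 bases before the start, on both strands, the E-box CAGGTG, the letters bound by repressors of the ZEB and SNAI families, was found in 4 of the 7, MUC1, PIGR, WFDC2 and LCN2, and in 17.5% of all 27305 promoters. TGANTCA, bound by AP-1, was found in LCN2 alone (6.60% of all promoters), CAGGAAG, bound by ETS factors, in MUC16 and PIGR (10.5%), and TATAAA in MUC1 (11.1%). GGGANTTCC, of the kappaB type, was in none of the 7 (1.60%). The RefSeq starts differ from the GENCODE bounds for some genes: the MUC16 promoter (chr19:9065752-9066001) lies upstream of its bounds, which end at 8981342, the AGR2 promoter (chr7:16805000-16805249) lies within its bounds, which end at 16833433, and the MUC4 promoter is exonic throughout. The LCN2 promoter (chr9:128149203-128149452) also lies within its bounds, which run from 128149071 to 128153455. The motifs were picked with the direction of the 10 genes known, and a match in the letters is a description, not a binding site. The stretches that hold CAGGTG outside annotated exons are shown for MUC1, PIGR and LCN2 (in WFDC2 it lies in an annotated exon, and a further site of LCN2, 14 bases before the start, reaches into one), from GRCh38.p14, 5′ to 3′ on the strand of the gene, with CAGGTG or its reverse complement in capitals. MUC1 (chr1:155192917-155193165, reverse strand) has it 82 and 75 bases before the start, PIGR (chr1:206946467-206946716, reverse strand) 19 bases before it, and LCN2 (chr9:128149265-128149440, forward strand) 128 bases before it.
MUC1: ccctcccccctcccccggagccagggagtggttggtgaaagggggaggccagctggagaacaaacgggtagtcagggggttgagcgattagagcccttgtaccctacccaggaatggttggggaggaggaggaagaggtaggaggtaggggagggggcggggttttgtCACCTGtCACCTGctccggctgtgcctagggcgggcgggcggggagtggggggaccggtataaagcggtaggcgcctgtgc
PIGR: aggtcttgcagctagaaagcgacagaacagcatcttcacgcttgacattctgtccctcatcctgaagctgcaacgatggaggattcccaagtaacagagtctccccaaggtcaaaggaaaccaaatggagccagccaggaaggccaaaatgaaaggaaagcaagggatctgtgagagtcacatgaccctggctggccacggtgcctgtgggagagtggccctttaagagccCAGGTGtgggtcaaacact
LCN2: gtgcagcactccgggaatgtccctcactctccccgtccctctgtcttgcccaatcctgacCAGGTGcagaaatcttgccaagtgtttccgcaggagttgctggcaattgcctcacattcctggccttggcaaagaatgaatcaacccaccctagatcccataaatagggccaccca

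The genes near the 10 on the chromosomes were counted too. Of 62 other genes of the table within 100 kb of them, 39 were tested in SUM149PT, where 18 were lower in CSCs and 1 was higher, and 35 were tested in HCC1937, where 4 were lower and 1 was higher. Over all genes, 22.1% were lower and 12.8% higher in SUM149PT CSCs, and 6.0% were lower and 2.71% higher in HCC1937 CSCs (limma, with the same limits). Some of these neighbours are joint transcripts that share reads, such as EPPIN-WFDC6, so they are not separate measurements.

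The related genes came from 6 lists of 102 genes in all, of which 57 were tested in SUM149PT and 48 in HCC1937. In SUM149PT 24 were lower in CSCs and 13 higher, and in HCC1937 15 were lower and 1 was higher. The fraction effect differed between the lines for 31 of the 58 tested for it. The median log2 fold change of all genes was -0.11 in SUM149PT and -0.03 in HCC1937.

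Other mucins were mostly too low to test: 4 of 18 in SUM149PT, of which MUC2 and MUCL1 were lower in CSCs, and 3 in HCC1937, of which MUC3A was lower. Their medians were -1.09 and -0.33. The called genes were near the floor. In SUM149PT the means were 0.0226 FPKM in CSCs against 0.383 for MUC2 and 0.0549 against 1.21 for MUCL1. MUC3A was listed at 0 in HCC1937 CSCs against a mean of 0.456. With a minimum of 1 FPKM, 0 were lower in SUM149PT, and with a pseudocount of 1, 0 were lower in HCC1937. After rescaling to a common sum, with 17878 genes tested in SUM149PT, 2 genes of this list were called higher in its CSCs, against 0 as deposited. The sialomucin CD164, the most abundant, read 68.3, 67.3 and 67.5 FPKM in SUM149PT CSCs and 48.0, 43.3 and 45.4 in non-CSCs, a log2 change of 0.57 ± 0.06 (SE) under the size limit, and 61.4, 60.9 and 63.3 against 81.2, 76.6 and 75.1 in HCC1937, a change of -0.33 ± 0.07. CD164 was thus without a call in either line, with opposite signs, and OVGP1, at -0.19 ± 0.12 and -0.26 ± 0.15, was not called in either line.

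Of the enzymes that build mucin O-glycans, 9 of 24 tested were lower and 7 higher in SUM149PT CSCs, and 3 of 21 were lower in HCC1937, with medians of -0.22 and -0.00159. GALNT3, which adds the first sugar, read 1.69, 1.45 and 1.40 FPKM in SUM149PT CSCs against 33.3, 30.7 and 30.6, and 3.16, 3.79 and 3.84 in HCC1937 CSCs against 22.3, 21.8 and 20.7. It was lower in 3 of 3 CSC libraries of each line, by limma at log2 -4.30 ± 0.09 (SE, adjusted p = 1.82e-06) and -2.56 ± 0.10 (adjusted p = 0.000133). B3GNT3 was also lower in both, at -3.72 ± 0.13 (adjusted p = 5.1e-06) and -2.13 ± 0.12 (adjusted p = 0.000271), each in 3 of 3 libraries. GALNT2, an enzyme of the same family as GALNT3 with a higher mean level, went the other way in SUM149PT, at 1.11 ± 0.05, and was at 0.29 ± 0.07 in HCC1937, under the size limit. ST3GAL1 and ST6GALNAC4, which cap the chains with sialic acid, were not called in either line. The list therefore split by enzyme in SUM149PT.

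Of the regulators of secretory cells, 3 of 9 were lower and 3 higher in SUM149PT, and 3 of 9 were lower and 1 higher in HCC1937 (medians 0.21 and -0.38). ELF3, an ETS factor of epithelial cells, read 30.7, 35.1 and 32.7 FPKM in SUM149PT CSCs against 194, 205 and 176, and 16.3, 17.0 and 15.7 in HCC1937 CSCs against 96.3, 82.6 and 82.3. It was lower at log2 -2.54 ± 0.09 (adjusted p = 5.35e-06) and -2.40 ± 0.09 (adjusted p = 0.000128), in 3 of 3 CSC libraries of each line. FOXA1, a pioneer factor of luminal cells, was lower at -2.13 ± 0.09 and -1.36 ± 0.13. CREB3L1, a transcription factor of secretory stress, was instead higher in CSCs of both lines, at 2.88 ± 0.13 and 2.21 ± 0.14. XBP1, the most abundant of the list, and EHF, an ETS factor related to ELF3, were not called in either line, with XBP1 at 0.42 ± 0.07 and 0.13 ± 0.06. Regulators of secretion thus did not move as a block.

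Among other goblet and luminal products, 3 of 7 were lower in SUM149PT (1 without non-CSC replicate 2) and 2 of 5 in HCC1937 (medians -1.34 and -1.27). CEACAM6, an epithelial adhesion molecule, was listed at 0 in the SUM149PT CSC libraries against 0.219, 0.296 and 0.234 FPKM, and read 0.0999, 0.190 and 0.235 in HCC1937 CSCs against 2.18, 1.65 and 2.00. It was called lower in both lines. ZG16B, TFF1 and TFF2, 3 of the 4 most abundant of the list, were not called in the lines in which they were tested.

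WAP domain and antimicrobial proteins, the list nearest to WFDC2, SLPI and LCN2, had 6 of 10 lower and 2 higher in SUM149PT and 6 of 8 lower in HCC1937 (3 without non-CSC replicate 2 or 3), with medians of -1.70 and -1.44. PI3, described beside SLPI, was lower at log2 -4.96 ± 0.08 (adjusted p = 1.49e-06) in SUM149PT and -1.41 ± 0.11 (adjusted p = 0.000665) in HCC1937, in 3 of 3 CSC libraries of each. TCN1, a vitamin B12 carrier, and WFDC12 were lower in both at under 2 FPKM in every library, WFDC12 with an adjusted p of 0.0499 in HCC1937. The defensins DEFB1 and DEFB4A were lower in HCC1937 CSCs, at -2.36 ± 0.30 and -2.44 ± 0.54. In SUM149PT, DEFB1 was too low to test and DEFB4A was at -1.71 ± 0.75, not called. Neither defensin was called for a difference between the lines. WFDC3 was lower in SUM149PT CSCs at -2.06 ± 0.26 and too low to test in HCC1937. RNASE7, an antimicrobial ribonuclease, was higher in SUM149PT CSCs at 1.69 ± 0.43 and lower in HCC1937 CSCs at -1.27 ± 0.22.

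Secretoglobins and milk proteins, the list of SCGB1A1, were almost all under the minimum, with 3 of 15 tested in SUM149PT and 2 in HCC1937 (medians 0.95 and -0.71). XDH, xanthine oxidoreductase of the milk fat globule, was higher in SUM149PT CSCs at 2.43 ± 0.12. PIP was lower there at -1.78 ± 0.44, with a mean of only 0.0583 FPKM over all 15 libraries. The PIP call was lost without non-CSC replicate 1 and with a pseudocount of 1. MFGE8, a milk fat globule protein, had 0.95 ± 0.07 in SUM149PT and -0.44 ± 0.12 in HCC1937, neither past the size limit. SCGB3A1 was too low to test.

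**Figure D4:**
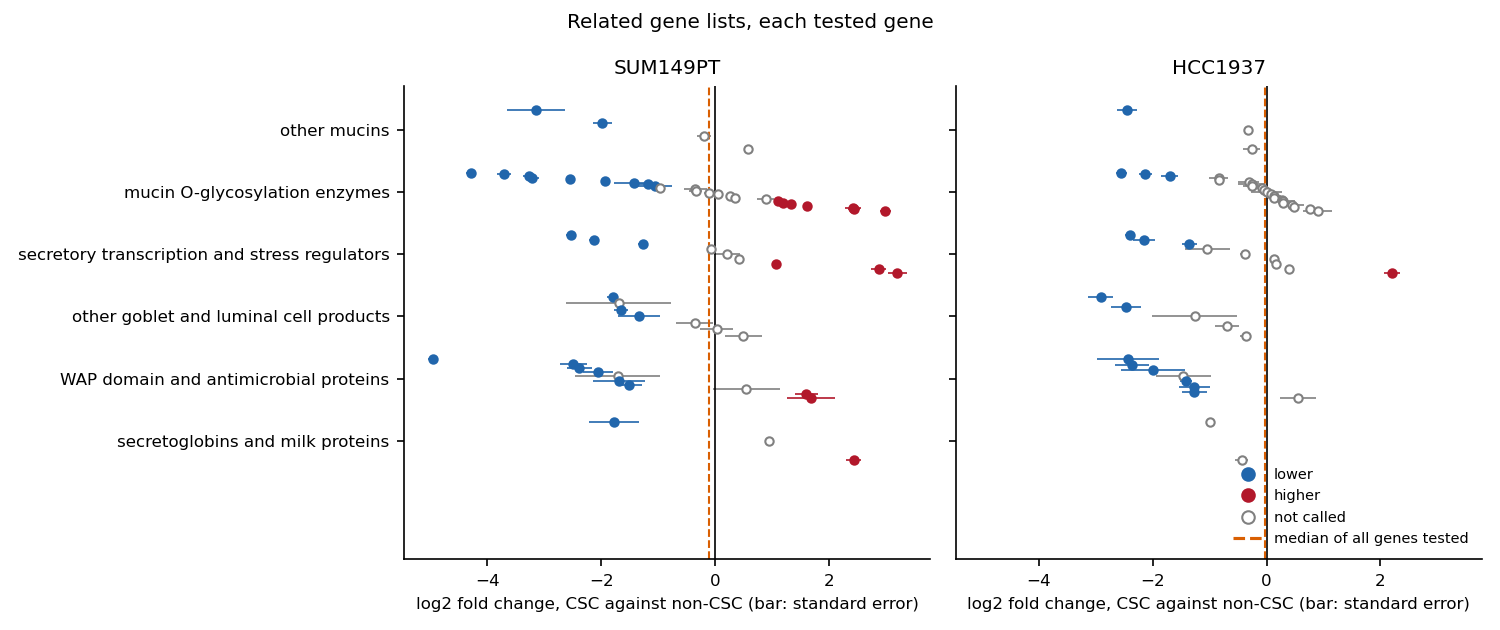
Log2 fold change of CSCs against non-CSCs for each tested gene of the 6 related lists, by line; points are genes, bars standard errors, filled points called genes and the dashed line the median of all genes tested. Points of the mucin O-glycosylation enzymes run from -4.30 (GALNT3) to 3.00 (GALNT5) in SUM149PT, and 6 of 8 antimicrobial genes are lower in HCC1937.

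Several markers of the gate and of cell type differed between the fractions too. CD24, on which the cells were sorted, read 7.97, 7.64 and 7.61 FPKM in SUM149PT CSCs against 147, 137 and 134, and 23.6, 22.5 and 23.9 in HCC1937 CSCs against 167, 141 and 142, while SUM159PT read 0.759, 0.682 and 0.745. CD44 was under 1 in log2 size and so did not pass the size limit, at log2 0.39 ± 0.06 and 0.12 ± 0.08. Of 6 epithelial markers, EPCAM, CDH1, KRT8, KRT18 and KRT19 were lower in the CSCs of both lines, and KRT7, the most abundant in CSCs, was at -0.97 ± 0.06 and -0.98 ± 0.10. Their summed FPKM was 428, 445 and 415 in SUM149PT CSCs against 2289.6, 2219 and 2269, then 972, 897 and 820.3 in HCC1937 CSCs against 2301, 2337 and 1985, and 1304, 1171 and 1321 in SUM159PT. EPCAM and CDH1 were below 0.1 FPKM in every SUM159PT library. KRT19 had a mean of 0.415 there, while KRT8, KRT18 and KRT7 had means of 132, 153 and 980. Of 4 mesenchymal markers, VIM, ZEB1 and CDH2 were higher in the CSCs of both lines and FN1 in those of HCC1937, and VIM, the most abundant, had means of 2089.9 and 244 in SUM149PT and 917 and 156 in HCC1937. The summed mesenchymal FPKM was 2338, 2485 and 2397 in SUM149PT CSCs against 456, 447 and 508, then 1077, 947 and 923 in HCC1937 CSCs against 140.5, 211 and 186, and 1227, 1234 and 1257 in SUM159PT. In SUM159PT, VIM and FN1 had means of 1078 and 158. ZEB1 and CDH2 had means of 0.204 and 2.86 there, lower than in any sorted group. The FPKM of all genes sums to 652082, 646697 and 634746 in SUM159PT libraries and to 291276 to 366532 in the sorted ones, so comparisons of FPKM with SUM159PT depend on the scaling. The part of these markers in the levels of the 10 genes was not tested.

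Markers of other cell types were read as well. Of 7 leukocyte markers, CD3E and MS4A1 were listed at 0 in all 15 libraries and PTPRC was below 0.1 FPKM in each. CD14, the most abundant, read 2.68, 3.08 and 2.21 in SUM149PT CSCs, 52.4, 48.6 and 52.9 in SUM149PT non-CSCs, 65.0, 62.4 and 53.6 in HCC1937 CSCs and 29.5, 32.8 and 28.5 in HCC1937 non-CSCs (log2 -4.23 in SUM149PT, lower in CSCs, and 0.99 in HCC1937, not called). In SUM159PT, CD14 read 19.7, 19.9 and 16.6. CSF1R, under 0.5 FPKM in every library, was lower in HCC1937 CSCs (log2 -1.01, adjusted p = 0.0361, with 3 of 3 CSC libraries below all non-CSC ones) and not called in SUM149PT. The 3 endothelial markers summed to at most 1.83 FPKM in any library, and all were lower in SUM149PT CSCs (PECAM1 -1.20, CDH5 -2.70, VWF -2.48), with CDH5 also lower in HCC1937 CSCs (-1.28). Their part in the levels of the 10 genes was not tested. Of the receptors that class the lines as triple negative, PGR was at or near 0, ESR1 was at most 1.86 FPKM and lower in the CSCs of both lines (log2 -2.61 and -1.85), and ERBB2 had group means from 3.55 to 19.1.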

How the data were processed

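The values are FPKM that the authors deposited, 33158 gene symbols by 15 libraries. The submitters' processing notes name Bowtie2 and GRCh38; the quantifier and any scaling between libraries are not given in the sources used here. Depth is unknown and precision rests on 3 libraries a group. The 10 genes and the lists were chosen with earlier results of these data known.

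The log2(FPKM + 0.1) values were fitted with limma 3.58.1 (lmFit, eBayes; R 4.3.3) over the 6 libraries of each line, for genes whose mean there reached 0.1 FPKM, with Benjamini-Hochberg adjustment over all genes. A call needs an adjusted p ≤ 0.05 and a log2 fold change of 1 or more in size. Line differences are an interaction over 12 libraries. The model was tested on simulated data with independent normal noise in each library, which cannot show effects that libraries share. Tables and plots used Python 3.11.15, pandas 2.3.3, numpy 2.4.6 and matplotlib 3.10.9. Promoters are from RefSeq (GRCh38.p14, 7 of 10 genes matched by symbol), gene bounds from GENCODE release 29.

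All 10 genes are named, with the 2 genes of most similar profile for each. Of 6 related lists (102 genes, all found, MUCL3 as DPCR1) the 4 with the highest mean FPKM and those called in both lines are named. MUC2, GALNT5, CLK2, SCAMP3 and EPPIN-WFDC6 were chosen after their values were seen. Alternatives were the pseudocount, the minimum, scalings, the fit, a replicate block, the p and fold limits, 4 group means in the profile search, and leaving out each library.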

Additional observations from a re-analysis of the deposited data

Results flagged for a closer look

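Over all 16451 genes tested 30.4% differed between the lines in the effect of the fraction, and of the related genes 31 of 58. For 11 of the related genes named for their level or for calls in both lines (27 of them tested), the effect of the fraction differed between SUM149PT and HCC1937 by limma's interaction test over 12 libraries (adjusted p ≤ 0.05 and 1 or more in log2 size), given here as the SUM149PT log2 change minus the HCC1937 one. PI3 differed by -3.55 (adjusted p = 2.88e-08), with the larger difference in SUM149PT. GALNT3 differed by -1.74 (adjusted p = 2.23e-06) and B3GNT3 by -1.59 (adjusted p = 3.3e-05), both lower in the CSCs of each line. TCN1 differed by -1.11 (adjusted p = 0.0252), at levels below 1 FPKM. MUCL1 differed by -3.14 (adjusted p = 0.000693), and it was listed at 0 in all HCC1937 libraries. WFDC3 differed by -2.26 (adjusted p = 0.0024), with HCC1937 under the minimum. MUC3A differed by 2.36 (adjusted p = 5.27e-06), being measurable almost only in HCC1937 non-CSCs. CEACAM6 differed by 1.12 (adjusted p = 0.00316), but its SUM149PT CSC libraries are listed at 0, so the size and the sign of this value depend on the added 0.1. RNASE7 differed by 2.96 (adjusted p = 0.00066), since it was higher in SUM149PT CSCs and lower in HCC1937 CSCs. XDH differed by 3.42 (adjusted p = 6.98e-08) and MFGE8 by 1.39 (adjusted p = 1.84e-05), each with opposite signs in the lines.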

How the results depend on the processing

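The log2 differences of the 10 genes were negative in both lines under all alternatives run for them (240 values, 0 reversed), which says little for genes chosen on that direction. Sizes moved with the pseudocount: from 0.01 to 1, PIGR in HCC1937 went from -4.01 to -0.61, MUC20 in SUM149PT from -2.51 to -0.31 and MUC16 in SUM149PT from -4.66 to -1.25. Calls at the settings of the report were 5596 in SUM149PT (37 related genes), 1357 in HCC1937 (16) and 5004 for the line difference (31). A pseudocount of 1 gave 3109 (20), 626 (10) and 2872 for all genes. A minimum of 1 FPKM, which tests fewer genes, gave 3623 (21), 872 (10) and 16 related genes for the line difference. The limit of 0.0001 on the adjusted p gave 3292 (23), 0 (0) and 2922 (20); in HCC1937 the smallest adjusted p by limma was 0.000128, and 1482 genes, 18 of them related, had an unadjusted p under 0.05 and passed the size limit. Without the size limit there were 11993, 3985 (28) and 10053. Apart from the limits, where the construction shows it, the cause was not tested. Quantile normalization moved the share of higher among all calls in SUM149PT from 36.5% to 50.0% and the median log2 change from -0.11 to 0.09; rescaling to a common sum, which also changed the genes tested to 17159, moved the share in HCC1937 from 31.1% to 42.1% and the median from -0.03 to 0.09. With 1 library left out, related genes called ran from 34 to 38 in SUM149PT and 13 to 18 in HCC1937. Single lists moved more: the 6 antimicrobial genes lower in HCC1937 became 3 without non-CSC replicate 2 or 3; the 3 goblet and luminal genes lower in SUM149PT became 1 without non-CSC replicate 2; the milk protein lower in SUM149PT became 0 by limma without non-CSC replicate 1. In HCC1937 1 milk protein was called lower without CSC replicate 3 or non-CSC replicate 2, and 1 O-glycosylation enzyme higher without CSC replicate 1. Of the 20 nearest genes by profile, 8 were the same without SUM159PT, a search that also compared fewer genes (4116 against 8018).

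With the replicate number as a block, calls were 5584 (37), 1268 (14) and 4944 (29). Same-numbered CSC and non-CSC libraries correlated by -0.0803 to 0.0832 in their deviations, so the pairing is only a shared number, and not every library correlated best with its own number.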
